A study of Mus musculus with 2 samples.

Results

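The cells described here, called *Cd209a* cells, were 186 of 15514 kept cells from mouse skin wounds 5 days after injury, chosen because they carried RNA of *Cd209a*, the lectin gene by which type 2 dendritic cells are often recognised, together with RNA of MHC class II. A kept cell had at least 500 detected genes and at most 6% of its unique molecular identifiers (UMIs, each standing for 1 captured RNA molecule) from mitochondrial genes. A *Cd209a* cell had at least 2 UMIs of *Cd209a*, and *H2-Aa*, *H2-Ab1* and *Cd74* together made up at least 1% of its UMIs. It had at most 1 UMI of *Ccr7*, the chemokine receptor of mature dendritic cells, 0 UMIs of *Xcr1* and *Clec9a*, the markers of type 1 dendritic cells, and under 3 UMIs of *Cd207*, the langerin of Langerhans cells. *Col1a1* and *Col3a1* together, and *Krt5* and *Krt14* together, each made up under 0.5% of its UMIs. These genes chose the cells, so their values are given as a description.

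The study captured live cells from whole wound tissue, with 1 single-cell RNA library per condition, to compare wounds with and without depletion of cells that express *Mrc1*, the gene of the mannose receptor CD206. Both libraries are labelled as wounds of C57BL/6 mice of the genotype Mrc1-DTR, aged 7 to 9 weeks, in which the promoter of *Mrc1* drives the diphtheria toxin receptor, and the mice of the first received PBS and those of the second diphtheria toxin (DTX). The tissue was taken with a 10 mm punch and the cells of 3 mice were pooled per group. The methods of the study instead describe the controls as wild-type mice given the toxin, and its text gives the barcode numbers of the libraries the other way round, so the libraries are called PBS and DTX after their labels. The study also reports a larger share of immune cells and fewer fibroblasts in depleted wounds. By the labels, 5097 leukocytes and 398 fibroblasts were kept in DTX, against 2146 and 2386 in PBS, as counted below. The toxin can reach any cell that uses the *Mrc1* promoter, and the *Cd209a* cells carried *Mrc1* RNA themselves. The PBS library held 12058 barcodes with 105511870 UMIs, of which 8326 cells were kept and 88 were *Cd209a* cells. The DTX library held 11031 barcodes with 81858751 UMIs, of which 7188 cells were kept and 98 were *Cd209a* cells. With 1 library per condition no test between conditions was possible, and the 95% intervals below cover counting error only, not differences between mice or captures. Those of gene levels and ratios count each UMI on its own and also leave out the spread between cells.

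Dendritic cells sample tissue for antigen, load peptides onto MHC class II and carry them to lymph nodes, where they activate T cells. The type 2 subset presents mainly to CD4 T cells, depends on the transcription factor IRF4 and the cytokine receptor FLT3, and in mouse dermis carries C-type lectins such as CD209a and MGL2 (CD301b). Monocyte-derived cells of inflamed skin can carry the same lectins and class II, which is why *Cd209a* RNA alone does not separate the lineages.

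*Cd209a* lies on the minus strand at chr8:3743397-3748984 (mm10, GRCm38), and the other markers given with the label are *Mgl2* at chr11:70130329-70137550, the chemokine gene *Ccl17* at chr8:94810453-94812036, which attracts T cells through CCR4, and *Flt3* at chr5:147330741-147400489. Class II RNA was part of the rule, and its regulation in dendritic cells is well known: the transactivator CIITA is recruited by factors on short promoter elements, among them the Y box, which binds NF-Y. For that reason the 150 bases before the gene start of 2 class II chains are shown 5′ to 3′ on the strand of the gene, from RefSeq promoters (GRCm38.p6), with the letters of the Y box, CTGATTGG, in capitals. The stretch of *H2-Aa* is chr17:34287824-34287973 on the minus strand and that of *H2-Eb1* is chr17:34305717-34305866 on the plus strand.
H2-Aa: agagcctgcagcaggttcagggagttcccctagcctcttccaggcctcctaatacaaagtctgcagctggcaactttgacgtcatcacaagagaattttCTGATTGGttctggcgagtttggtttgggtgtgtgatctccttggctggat
H2-Eb1: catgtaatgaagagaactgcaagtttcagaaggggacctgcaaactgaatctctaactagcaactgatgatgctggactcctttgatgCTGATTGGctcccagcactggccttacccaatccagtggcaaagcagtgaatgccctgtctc
The letters began 51 bases before the gene start in *H2-Aa* and 62 bases before it in *H2-Eb1*. Of 32851 promoter windows, from 250 bases before to 50 after the start, 1346 (4.10%) held CTGATTGG on either strand. The windows of *H2-DMa*, *H2-DMb1*, *Cd209a*, *Cd209d*, *Cd209e*, *Mgl2*, *Ccl17* and *Flt3* did not hold these exact letters, which says nothing of the factor. *H2-Ab1* and *Clec10a* were not searched.

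*Cd209a* cells formed a small share of the wound in both libraries. They made up 1.06% of kept PBS cells (exact interval 0.849% to 1.30%) and 1.36% of kept DTX cells (1.11% to 1.66%), a log2 ratio of DTX to PBS of 0.37 (-0.06 to 0.80). Kept cells also held 2386 collagen-rich fibroblasts in the PBS and 398 in the DTX library, so that the cells over which this share was taken differed between the libraries. Among cells that met every limit except that on *Cd209a*, the *Cd209a* cells were 5.84% (4.71% to 7.14%) in PBS and 4.50% (3.67% to 5.45%) in DTX, a log2 ratio of -0.38 (-0.81 to 0.06). Among cells with a UMI of *Ptprc*, the leukocyte antigen CD45, and little collagen or keratin RNA they were 81 of 2146 (3.77%) in PBS and 94 of 5097 (1.84%) in DTX, a log2 ratio of -1.03 (-1.48 to -0.59). The ratio was thus above 0 over all kept cells and below 0 over leukocytes, and its interval lay off 0 in the latter case. With cells thinned to 2000 UMIs it was 0.06 over kept cells and -0.77 (-1.37 to -0.16) over cells that met the other limits, and under the study's limit of 2000 genes per cell it was -2.31 (-3.63 to -1.19) over kept cells, from 38 PBS and 8 DTX cells.

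Within the sum of dendritic and Langerhans cells, *Cd209a* cells were 18.8% (15.4% to 22.7%) of 467 cells in PBS and 22.6% (18.8% to 26.9%) of 433 cells in DTX, with an interval of the log2 ratio of -0.17 to 0.70. Of all kept cells, type 1 dendritic cells, taken by *Xcr1* and *Clec9a* and with at most 1 UMI of *Cd209a*, made up 0.516% in PBS and 0.417% in DTX. Mature dendritic cells with at least 2 UMIs of *Ccr7* made up 2.23% and 3.31%. Langerhans cells made up 1.80% and 0.932%, and macrophages that met the same lower limit on class II but had no *Cd209a* UMI made up 15.5% and 26.3%. *Cd209a* cells thus stood between type 1 and mature dendritic cells in number in both libraries. No barcode of a *Cd209a* cell occurred among the *Cd209a* cells of the other library, and 1 occurred among its kept cells, whereas the libraries shared 37 of all barcodes and 20 of those kept.

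The *Cd209a* limit crossed a gradient. The level in a *Cd209a* cell ran from 2 to 33 UMIs with a median of 5 in PBS, and from 2 to 44 with a median of 5 in DTX. Just inside the limit, 20 PBS and 16 DTX cells had 2 UMIs, and just outside it, 39 PBS and 37 DTX cells had 1 UMI and met every other limit. Class II UMIs ran from 1.10% to 10.8% of a cell with a median of 5.30% in PBS, and from 1.02% to 12.8% with a median of 5.61% in DTX. Of 186 PBS and 187 DTX kept cells with at least 2 *Cd209a* UMIs, 78 and 75 were left out by the *Ccr7* limit, 67 and 71 of them by that limit alone. The *Ccr7* limit thus left out the smaller part of the *Cd209a*-carrying cells of each library.

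Libraries differed in the depth of these cells. A *Cd209a* cell had a median of 7686.5 UMIs in PBS (range 1310 to 21716) and 11170.5 in DTX (1125 to 24548), with a median of 2123.5 and 2711 detected genes. The cells gave 762215 UMIs in PBS and 1171101 in DTX, so that 1 UMI equalled 1.31 and 0.854 counts per 1000000 UMIs of the summed cells (CPM), the unit of all levels below. Ratios are log2 of the DTX over the PBS level with 1 CPM added to both. A gene is said to rise or fall where that ratio is past 2-fold, among the 4122 genes with at least 50 UMIs in *Cd209a* cells of both libraries together.

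A few *Cd209a* cells also carried RNA of other lineages. 4 PBS cells held 1352 of the 1567 UMIs of a list of 10 keratinocyte genes, with 206 to 412 UMIs each against at most 10 in any other PBS cell, and *Krt5* and *Krt14* met the limit in them. 1 DTX cell held 35 of 169 UMIs of a list of 10 fibroblast genes, and 1 DTX cell held 44 of 57 UMIs of 6 T and NK cell genes. Results that rest on these 6 cells are given with and without them. B cell genes *Cd79a*, *Cd79b* and *Ms4a1* were at 0 in both libraries, mast cell genes had 1 and 4 UMIs in PBS and DTX, neutrophil genes 18 and 67, endothelial genes 11 and 24, and pericyte genes 8 and 7.

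Of markers of type 2 dendritic cells that the rule did not use, *Mgl2*, *Clec10a*, *Flt3* and *Zbtb46* stood higher than in class II macrophages and *Sirpa* lower. The whole list of 18 genes, *Cd209a* included, summed to 3927 CPM in PBS and 3925 in DTX, against 2677 and 2755 there. *Cd209a*, *Mgl2* and *Clec10a* gave 876, 1031 and 289 CPM of this in PBS and 687, 696 and 470 in DTX. Without these lectins the list summed lower in *Cd209a* cells than in class II macrophages. *Mgl2*, a galactose-type lectin, had a UMI in 81.8% of PBS and 72.4% of DTX cells, *Clec10a*, its neighbour and paralog, in 64.8% and 77.6%, and *Sirpa*, a surface receptor of the subset that macrophages share, in 52.3% and 71.4%. *Sirpa* was at 123 and 129 CPM, against 207 and 236 in class II macrophages. *Flt3* was at 23.6 and 47.8 CPM against 2.3 and 6.6 in class II macrophages, yet it had a UMI in 17.0% and 37.8% of *Cd209a* cells, against 65.1% and 80.0% of type 1 dendritic cells, and *Zbtb46*, a transcription factor of classical dendritic cells, stood at 19.7 and 15.4 CPM against 19.0 and 37.4 in type 1 dendritic cells and 1.0 and 1.3 in class II macrophages. A UMI of any of *Flt3*, *Zbtb46*, *Kmo* and *Dpp4* was found in 42.0% of PBS and 65.3% of DTX cells. The shares of cells with a UMI in this paragraph were not taken at equal depth, and *Cd209a* cells were deeper in DTX. At least 3 UMIs of the macrophage C1q genes were carried by about 1 in 5 of the cells, as described further on, and a UMI of *Apoe* was found in 71.6% and 39.8%, of *Cd68* in 67.0% and 87.8% and of *Adgre1* in 37.5% and 49.0%, of which none is exclusive to macrophages. How often cells that do not use *Apoe*, *Cd68* or *Adgre1* had a UMI of them is not given here. Since the *Flt3* and C1q genes split the cells, they are called by the gene of their rule.

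Cells that do not use *Cd209a* carried almost none of it. Of lymphocytes, which do not use the gene, 0 of 205 in PBS and 0 of 153 in DTX had a UMI of *Cd209a*, at median depths of 6834 and 8097 UMIs. With 3 counts in place of 0 the shares of cells with a UMI would be 1.46% and 1.96%, and the exact upper limits were 1.78% and 2.38%. Of fibroblasts 0.545% and 0.503% had a UMI of it. Mature dendritic cells had one in 41.9% and 36.1%, Langerhans cells in 7.33% and 10.4% and type 1 dendritic cells in 4.65% and 0%. Type 1 dendritic cells were chosen with at most 1 UMI of *Cd209a*, so their share was held low by that choice. When each cell was thinned to 2000 UMIs, which left 86 PBS and 96 DTX cells, *Flt3* was detected in 3.49% and 11.5%, *Mgl2* in 72.1% and 49.0%, *Mrc1* in 44.2% and 44.8%, and *Ccl17* in 16.3% and 8.33%. Another random draw of the same size gave *Flt3* in 2.33% and 9.38% and *Mgl2* in 64.0% and 55.2%. At equal depth *Flt3* thus rested on a few cells. Its share was larger in DTX, but the intervals of the first draw overlapped (0.725% to 9.86% in PBS and 5.86% to 19.6% in DTX). *Mgl2* was seen in fewer DTX cells by a margin that moved with the draw, and *Mrc1* was seen in similar shares.

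**Figure D1:**
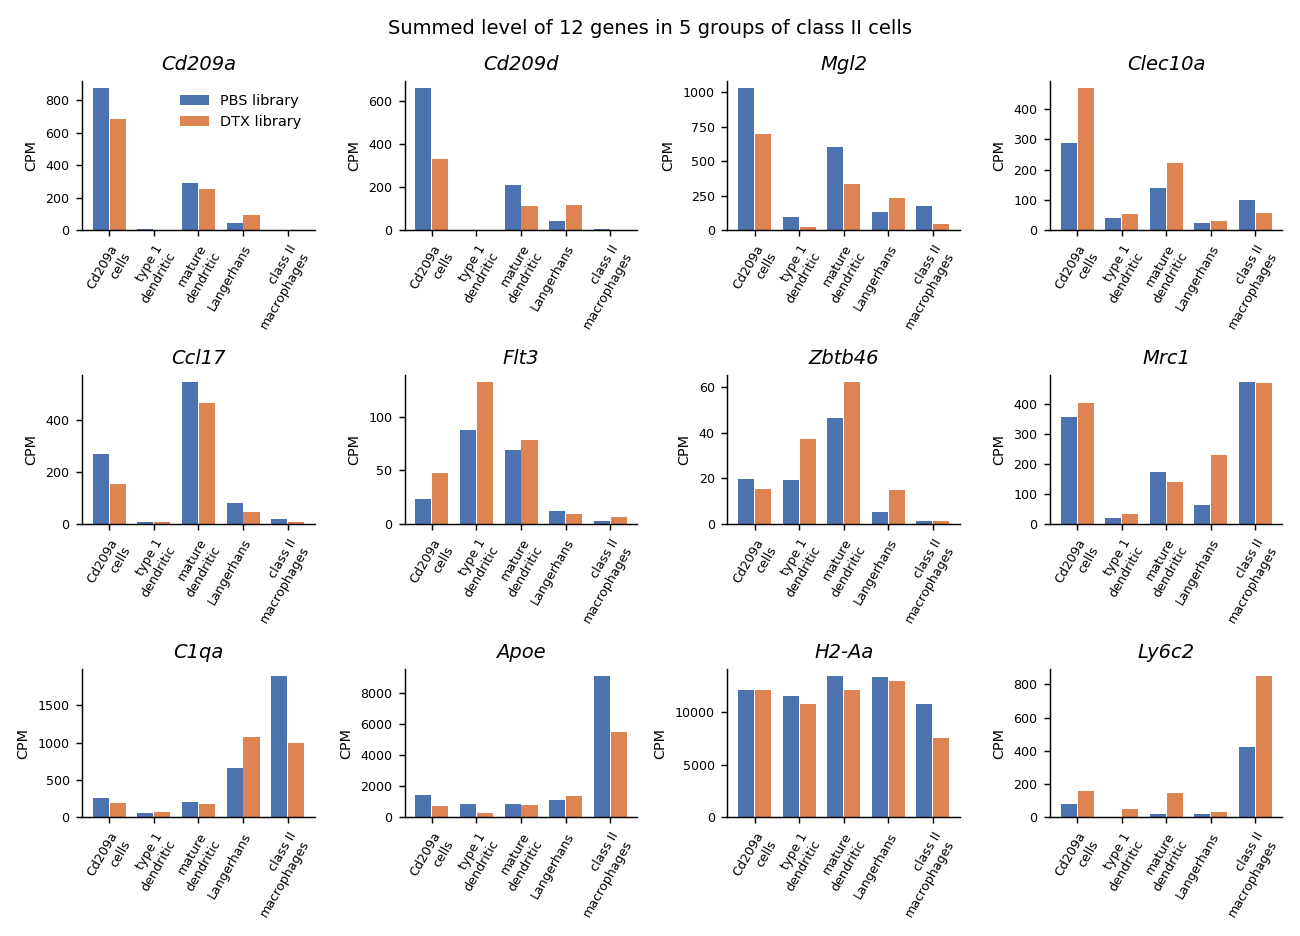
Bars give the level in CPM of 12 genes in Cd209a cells and in 4 other groups of class II cells, side by side for the PBS and DTX libraries. Cd209a, Cd209d, Mgl2 and Clec10a stood highest in Cd209a cells, Ccl17 in mature dendritic cells, Flt3 in type 1 dendritic cells, and Ly6c2 in class II macrophages.

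*Mgl2*, *Clec10a* and *Cd209d* stood higher in *Cd209a* cells than in the other class II cells, which does not hold for each lectin of the list, since the rule kept *Cd207* low in them and Langerhans cells were chosen by it. *Mgl2* was at 1031 CPM in PBS and 696 in DTX, against 177 and 40.1 in class II macrophages, 602 and 336 in mature dendritic cells, 130 and 229 in Langerhans cells and 93.1 and 21.0 in type 1 dendritic cells. *Clec10a* was at 289 and 470 CPM against 101 and 56.5 in class II macrophages and 138 and 221 in mature dendritic cells. *Cd209d*, a neighbouring lectin of the CD209 family that the rule did not use, was at 659 and 329 CPM against 4.49 and 0.349 in class II macrophages and 206 and 111 in mature dendritic cells. In each library the order of *Mgl2* was *Cd209a* cells, then mature dendritic cells, then the rest, and *Clec10a* followed the same order. For *Cd209d* mature dendritic cells came next in PBS, while in DTX Langerhans cells (115 CPM) stood beside them. The last 500 bases of the transcripts of *Cd209a*, *Cd209d* and *Cd209e* shared no window of 90 bases, and those of *Clec10a* shared 111 of 2034 windows (5.46%) with *Mgl2*, so that few reads near the 3′ ends could fit both.

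Ranked by the lower of both libraries' ratios over class II macrophages, the leading genes after *Cd209a*, which was at 0 there by the rule, were *Cd209d* (log2 6.91), *Cd209e* (6.04), *Adam23* (5.28), *Cd7* (5.24), *Klrd1* (4.80), *Gfra2* (3.94) and *Ccl17* (3.87), followed by *Calcb*, *P2ry10*, *Ears2*, *H2-Oa*, *Ctnnd2*, *Pclaf* and *Satb1*. Over all other kept cells they were *Cd209a* itself (5.36), *Cd209d* (5.27), *Cd209e* (4.83), *Mgl2* (4.23), *Ear2* (3.71), *Clec10a* (3.48), *Klrd1* (3.34), *Klrb1b* (3.27), *Cd7* (3.10), *Kmo* (2.99), *Pgf* (2.90), *Ctnnd2*, *Gfra2*, *Tnip3* (2.72) and *H2-Ob*. *Klrd1* (CD94) and *Klrb1b* are receptor genes known from NK cells, *Cd7* is known from T and NK cells, and *Kmo* encodes a kynurenine-pathway enzyme. The T and NK list itself was nearly absent, with 9 UMIs in PBS and 57 in DTX. Among the genes lower than in class II macrophages in both libraries were *Chil3*, *Ccl8*, *C5ar1*, *Apoe*, *C1qc*, *Ms4a7*, *Rab20*, *C1qa*, *Ly6c2*, *C1qb*, *Fcgr4*, *Clec12a*, *Ccl7* and *Plin2*. Over the 10 levels of these 5 groups in both libraries, the genes most like *Cd209a* by Pearson correlation of log2(CPM + 1) were *Cd7* (0.956), *Cd209e* (0.956), *Cd209d* (0.954), *Calm3* (0.932), *Stat5a* (0.923), *Uty* (0.906), *Ccl17* (0.901) and *Srrm2* (0.899), a description over points that share libraries and at which the *Cd209a* level was itself set by the rule.

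Among the other genes of the NK-receptor kind, *Klrd1* had a UMI in 35.2% of PBS and 62.2% of DTX cells and was at a ratio of 0.76. *Cd7* had one in 20.5% and 32.7% (0.22), *Klrb1b* in 59.1% and 68.4% (0.18), and *Pgf*, a growth factor of the VEGF family, in 52.3% and 69.4% (0.45). *Tnip3*, an inhibitor of NF-kB signalling, was at -0.55, *Adam23* at -0.47 and *Ear2*, a ribonuclease gene of myeloid cells, fell (-1.39, from 289 and 169 UMIs). The genes were ranked by the lower of both libraries' ratios, so that being high in both was fixed by the choice. Others of the same ranking differed past 2-fold between libraries, with *Calcb* at -2.0 and *Kmo* at 1.19.

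**Figure D2:**
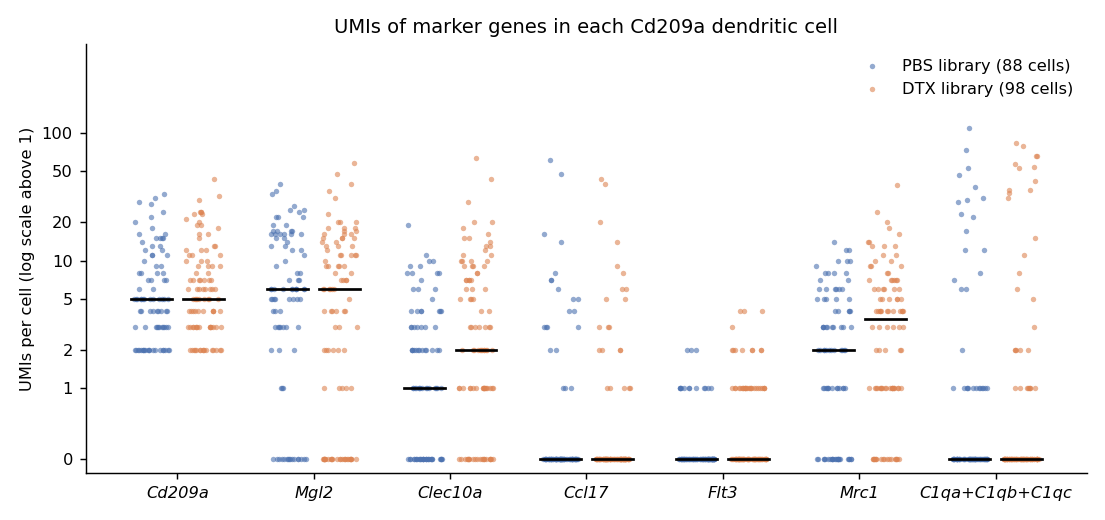
Each point is 1 Cd209a cell, with its UMIs of Cd209a, Mgl2, Clec10a, Ccl17, Flt3, Mrc1 and the sum of the C1q genes on an axis that is logarithmic above 1, and the line gives the median. Cd209a and Mgl2 spread over more than 10-fold in both libraries, while Ccl17, Flt3 and C1q lay at 0 in most cells.

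The levels varied widely from cell to cell. *Mgl2* ran from 0 to 40 UMIs per cell with a median of 6 in PBS, and from 0 to 58 with a median of 6 in DTX. *Mrc1* reached 14 UMIs with a median of 2 in PBS, and 39 with a median of 3.5 in DTX. *Ccl17* had a UMI in 23.9% of PBS and 22.4% of DTX cells, and 5 cells of each library held 147 of 204 (72.1%) and 127 of 179 (70.9%) of its UMIs. The ranges of the libraries overlapped for each of these genes, and the *Ccl17* level of both libraries was that of a few cells.

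About 1 in 5 *Cd209a* cells carried the complement genes of macrophages. Cells with at least 3 UMIs of *C1qa*, *C1qb* and *C1qc* together were 17 of 88 (19.3%, 11.7% to 29.1%) in PBS and 18 of 98 (18.4%, 11.3% to 27.5%) in DTX. They held 525 of 540 (97.2%) and 686 of 704 (97.4%) of the C1q UMIs, with 6 to 110 (median 23) and 3 to 84 (median 36) per cell, while 64.8% and 68.4% of all *Cd209a* cells were at 0. The C1q genes were thus split between a minority with many UMIs and a majority with nearly none in both libraries, and the intervals of the shares overlapped. The minority was also deeper, with a median of 10806 against 7210 UMIs in PBS and 13631.5 against 11093 in DTX. Doublets were not removed, and whether some of these cells were doublets was not tested.

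The C1q-carrying cells held other macrophage RNA as well. *Apoe*, a lipid carrier, was at 4660 CPM in them against 464 in the rest in PBS, and at 2225 against 345 in DTX. *Mrc1* was at 419 against 336 CPM in PBS and 688 against 327 in DTX. In PBS these cells had less of the lectins, with *Cd209a* at 555 against 973 CPM, *Mgl2* at 578 against 1168 and *Cd209d* at 62.3 against 838. In DTX the difference was small for *Cd209a* (632 against 701) and *Mgl2* (612 against 719), and *Cd209d* was at 388 against 313. *Dpp4* (4.0 against 45.6, from 1 and 42 UMIs), *Klrd1* (156 against 427), *Clec10a* (256 against 529) and *Ifitm1* (720 against 2223) in DTX were lower in the C1q-carrying cells. These cells were grouped by their own RNA, so the values are a description.

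**Figure D3:**
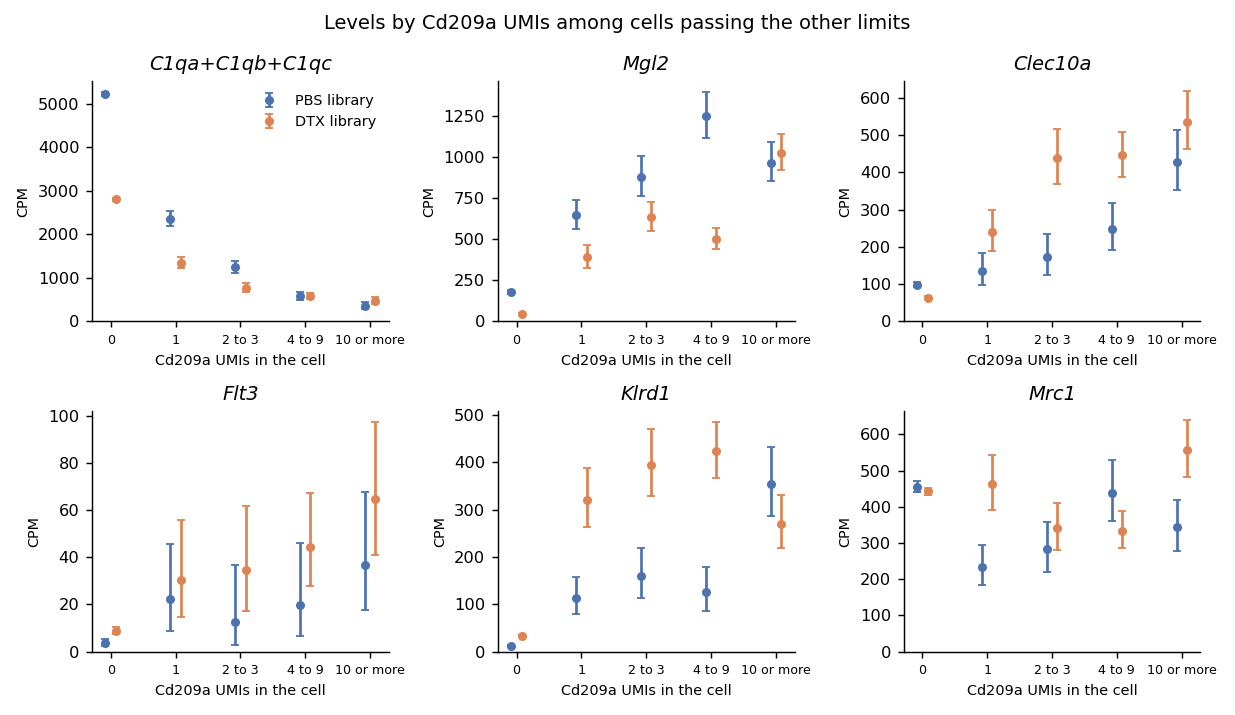
Levels in CPM with 95% Poisson intervals of the C1q sum, Mgl2, Clec10a, Flt3, Klrd1 and Mrc1 in cells that met every other limit, split by Cd209a UMIs into 0, 1, 2 to 3, 4 to 9 and 10 or more, for each library. C1q fell and Clec10a climbed along the 5 steps in both libraries, and Mrc1 had no steady order in either.

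Along the steps of *Cd209a*, the C1q sum went down and *Clec10a* went up in both libraries, while other dendritic genes had no common order. From 0 UMIs (1381 PBS and 2044 DTX cells) through 1, 2 to 3 and 4 to 9 to 10 or more (23 and 27 cells), the C1q sum was at 5218, 2353, 1246, 581 and 357 CPM in PBS and at 2802, 1349, 770, 580 and 479 in DTX. *Clec10a* went from 98.9 CPM at 0 UMIs to 427 at 10 or more in PBS, and from 63.7 to 535 in DTX. *Flt3* went from 3.81 to 36.8 CPM in PBS and from 8.92 to 64.8 in DTX, with 22.1 and 30.2 already at 1 UMI and a dip to 12.6 at 2 to 3 UMIs in PBS. *Sirpa* had no steady order, at 203, 120, 152, 146 and 77.4 CPM along the steps in PBS and at 227, 109, 132, 109 and 155 in DTX. The macrophage list summed to 2014 CPM at 4 to 9 UMIs and 2764 at 10 or more in PBS. *Klrd1* was at 11.7 and 32.7 CPM in cells without *Cd209a* and at 114 and 321 in cells with 1 UMI. Cells just outside the limit thus already carried more *Flt3* and *Klrd1* than cells without *Cd209a*. *Mrc1* was at 455 and 442 CPM without *Cd209a* and at 343 and 558 at 10 or more UMIs.

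*Mrc1*, whose promoter drives the toxin receptor (chr2:14229392-14332057), was at 356 CPM in PBS and 404 in DTX in *Cd209a* cells, a ratio of 0.18 (-0.03 to 0.40). It had a UMI in 72.7% and 81.6% of them. In class II macrophages its ratio was -0.01, at 473 and 469 CPM. Cells with at least 5 UMIs of *Mgl2* and 2 of *Mrc1* were 44.3% of PBS and 38.8% of DTX *Cd209a* cells. *Mrc1* RNA was thus present at about the same level in the *Cd209a* cells of the DTX library as in those of the PBS library.

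Across all genes, 103 of 4122 rose (2.50%) and 101 fell (2.45%), 204 past 2-fold in either direction (4.95%), and the median ratio was 0.06. Without the 6 mixed cells, 94 of 3931 genes rose (2.39%) and 54 fell (1.37%), with a median of 0.05. With the 6 mixed cells included, 22 of the 103 genes that rose also rose in class II macrophages, and 59 of the 101 that fell also fell there. The share of all genes past 2-fold in class II macrophages is not given here, so these overlaps are a description only. 1 gene, *Ccl3*, moved past 2-fold in opposite directions in both groups of cells.

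**Figure D4:**
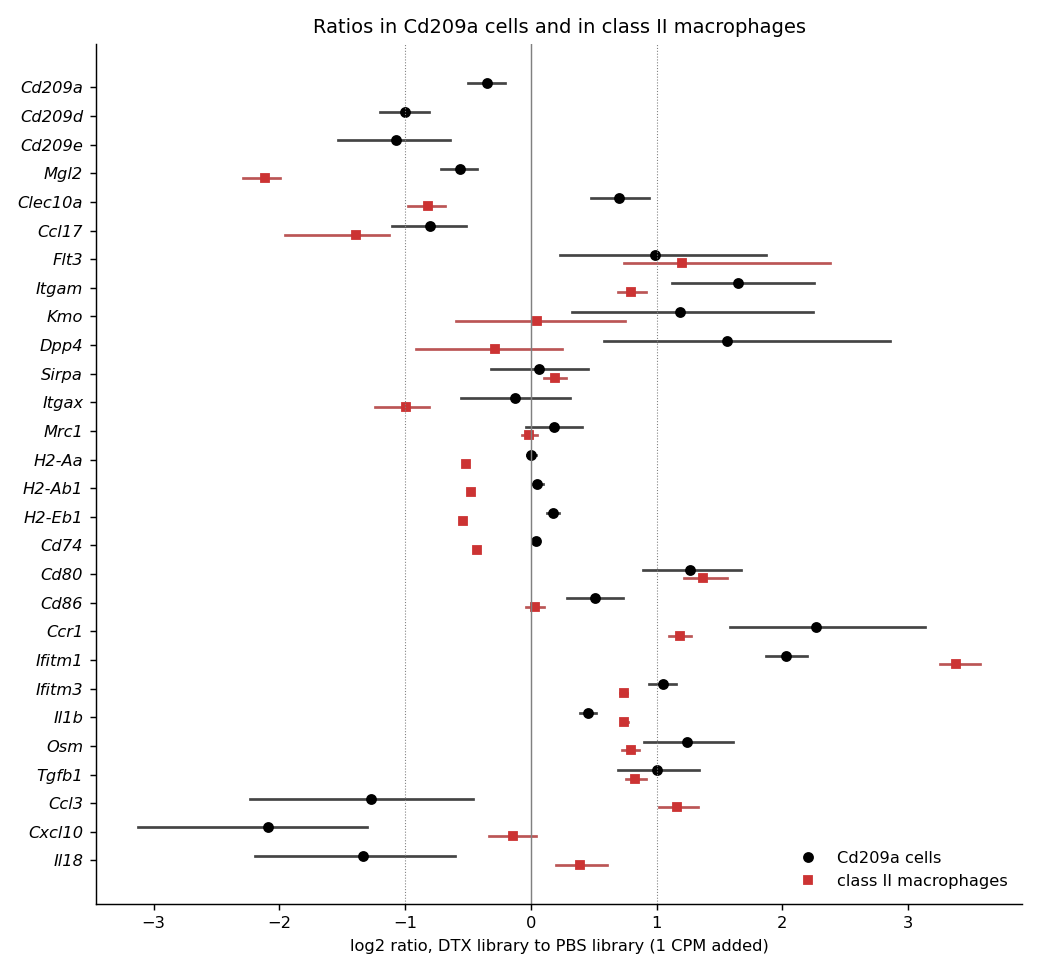
Log2 ratios of DTX to PBS with exact 95% counting intervals for 28 genes in Cd209a cells (black) and, where both libraries together gave at least 50 UMIs, in class II macrophages (red squares), with dotted lines at 2-fold. The class II genes lay near 0 in Cd209a cells and below 0 in class II macrophages, Ifitm1 and Cd80 lay above the upper line in both, and Ccl3 lay on opposite sides.

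Of 16 measured genes on the list of type 2 dendritic cells, 3 rose and none fell, with a median ratio of 0.12 beside 0.06 for all genes. Those that rose were *Itgam* (CD11b, 33 UMIs in PBS and 161 in DTX, 1.64, interval 1.12 to 2.25), *Kmo* (13 and 47 UMIs, 1.19, 0.32 to 2.25) and *Dpp4* (CD26, 9 and 43 UMIs, 1.56, 0.58 to 2.86). *Itgam* had a UMI in 26.1% of PBS and 61.2% of DTX cells, and *Dpp4* in 9.09% and 27.6%. Thinned to 2000 UMIs per cell, *Itgam* was seen in 6.98% and 20.8%. By contrast, *Dpp4* was then seen in 4 cells of each library (4.65% and 4.17%) and *Kmo* in 5 of each (5.81% and 5.21%). *Flt3*, from 18 and 56 UMIs, was at 0.99 (0.23 to 1.87), just under the limit, and at 1.16 without the 6 mixed cells, where 4 genes of the list rose. *Cd209a* was at -0.35, *Mgl2* at -0.57 (-0.71 to -0.42) and *Clec10a* at 0.70 (0.48 to 0.94), so the neighbours *Mgl2* and *Clec10a* moved in opposite directions, each by less than 2-fold. In class II macrophages both were lower in DTX (-2.11 and -0.82), and in mature dendritic cells *Mgl2* was at -0.84 and *Clec10a* at 0.68.

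Most other genes of the list stood near the median of all genes. *Irf4*, the factor of the subset, was at -0.01 (-0.81 to 0.81), *Spi1* (PU.1) at 0.23, *Zeb2* at 0.18, *Id2* at 0.26, *Klf4* at 0.02, *Notch2* at -0.01 and *Cbfb* at -0.15. *Itgax* (CD11c) was at -0.12 and *Sirpa* at 0.06. *Zbtb46*, with an interval of -1.43 to 0.74, and *Cd1d1* did not reach 50 UMIs. Mature dendritic genes, a list of which 6 of 12 were measured, gave none past 2-fold and a median of 0.06. Of plasmacytoid dendritic genes, *Bst2* was at 0.11 and *Tcf4* fell (-1.03), and of Langerhans genes *Epcam* fell (-2.30, 128 and 39 UMIs) but was at -0.50 without the 6 mixed cells, and *Cdh1* was at -0.61, or 0.13 without them, and *Mfge8* at 0.76. Of the 71 PBS and 121 DTX UMIs of type 1 dendritic genes, *Irf8* gave the most.

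Of 14 measured lectins, 2 fell and none rose, with a median of -0.08. *Cd209d* fell (502 and 385 UMIs, -1.0, -1.20 to -0.81), as did *Cd209e* (105 and 76 UMIs, -1.07, -1.53 to -0.65), both of the CD209 family. *Cd209d* was at -0.99 without the 6 mixed cells, so its call rested on the limit. In mature dendritic cells *Cd209d* was at -0.89. The Clec4 lectins, which couple to activating or inhibitory signals in myeloid cells, stayed within 2-fold, with *Clec4a1* at 0.28, *Clec4a2* at 0.50, *Clec4a3* at 0.94, *Clec4b1* at -0.65, *Clec4d* at -0.26, *Clec4e* at 0.36 and *Clec4n* at 0.10. *Clec12a* was at -0.60. *Cd209b*, *Cd209f*, *Cd209g*, *Clec4b2*, *Clec5a*, *Clec7a*, *Ly75* and *Cd207* were under 50 UMIs or not in the counts.

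MHC class II RNA was level between libraries in *Cd209a* cells. None of 12 measured class II pathway genes was past 2-fold, and their median was 0.07 against -0.37 in class II macrophages. *H2-Aa* was at 12024 CPM in PBS and 12064 in DTX (ratio 0.00, -0.03 to 0.04), with the promoter shown above, and *H2-Eb1*, whose RNA the rule did not use, was at 0.18 (0.13 to 0.22). *H2-Ab1* was at 0.05, the invariant chain *Cd74* at 0.04, and the peptide loading genes *H2-DMa* at -0.15, *H2-DMb1* at 0.05 and *H2-DMb2* at 0.09, while *H2-Oa* was at 0.05 and *H2-Ob* at 0.37. The transactivator *Ciita* was at 0.55 (-0.04 to 1.17), the protease *Ctss* at 0.37 and *Lgmn* at 0.22. In class II macrophages, chosen with the same class II limit, *H2-Aa* was at -0.52, *H2-Ab1* at -0.48, *H2-Eb1* at -0.54, *Cd74* at -0.43 and *Ciita* at -0.58. All these differences were under 2-fold, the difference between the groups of cells was not tested, and the limit on class II was part of the rule for both.

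Of 8 measured costimulatory genes, *Cd80*, a ligand of CD28 and CTLA-4, rose and none fell. *Cd80* had 72 UMIs in PBS and 268 in DTX (1.27, 0.90 to 1.67), with a UMI in 46.6% and 75.5% of cells, and rose also in class II macrophages (1.37). Its partner *Cd86* was at 0.51, *Cd83* at 0.35, *Cd40* at -0.38, *Cd48* at -0.58, the checkpoint ligands *Cd274* and *Pdcd1lg2* at 0.13 and 0.17, and the inhibitory receptor *Havcr2* (TIM-3) at 0.90. The median of the list was 0.26.

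Of 4 measured chemokine receptors 1 rose and none fell (median 0.58). *Ccr1*, a receptor for CCL3 and CCL5, had 17 UMIs in PBS and 130 in DTX (2.26, 1.58 to 3.14), against 1.18 in class II macrophages. *Ccr2*, the receptor of CCL2, was at 0.05. Of 11 measured cytokine receptors none was past 2-fold (median 0.51), although 9 were above 0, and without the 6 mixed cells 1 was past it (*Flt3*), 8 were above 0 and the median was 0.40. The decoy receptor *Il1r2* was at 0.98 (0.84 to 1.14), *Ifngr1* at 0.84, *Csf2rb*, the signalling chain of the GM-CSF receptor, at 0.69, *Crlf2*, of the TSLP receptor, at 0.53, *Il7r* at -0.03 and *Il13ra1* at -0.83.

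Of 16 measured chemokines 3 rose and 3 fell, with a median of 0.05. *Cxcl10*, which draws T cells through CXCR3, fell (44 and 15 UMIs, -2.09, -3.12 to -1.30), and was at -0.14 in class II macrophages and 2.01 in mature dendritic cells. *Ccl8* fell (76 and 28 UMIs, -2.02) and fell there too (-2.35). *Ccl3* fell on few UMIs (31 and 19, -1.27, -2.23 to -0.46) and rose in class II macrophages (1.16, 1.02 to 1.33). *Ccl17* was at -0.80 (-1.11 to -0.51), against -1.39 in class II macrophages and -0.24 in mature dendritic cells. Several of these changes leaned on single cells. Of the genes that fell, 1 PBS cell held 9 of 31 UMIs of *Ccl3* and 1 held 37 of 76 of *Ccl8*. *Cxcl10* was spread over 18 PBS cells, with at most 7 of its 44 UMIs in 1 of them. Of those that rose, 1 DTX cell held 31 of 105 UMIs of *Ccl4* (1.37, or 0.70 with a mitochondrial limit of 10%), 1 held 137 of 299 of the platelet factor *Pf4* (1.20), and 1 held all 52 of *Ppbp* (1.69). *Cxcl2*, a neutrophil chemokine, was at 0.07, *Ccl2* at 0.04 and *Ccl7* at -0.65. Without the 6 mixed cells *Ccl7* was at -1.05 (-1.45 to -0.67), so that 4 chemokines fell.

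Of 7 measured cytokines and growth factors 2 rose and 1 fell (median -0.01). *Osm* (oncostatin M) was at 1.24 (0.90 to 1.60) and *Tgfb1* at 1.00 (0.69 to 1.34, or 0.84 without the 6 mixed cells), and *Il18* fell (-1.34, -2.19 to -0.60). *Il1b*, with 3024 UMIs in PBS and 6356 in DTX, was at 0.45. *Hbegf*, whose protein is the natural receptor of the toxin in sensitive species, was at -0.96 and at -0.20 without the 6 mixed cells. *Il6* had 18 UMIs in PBS and 4 in DTX, too few for the limit of 50.

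**Figure D5:**
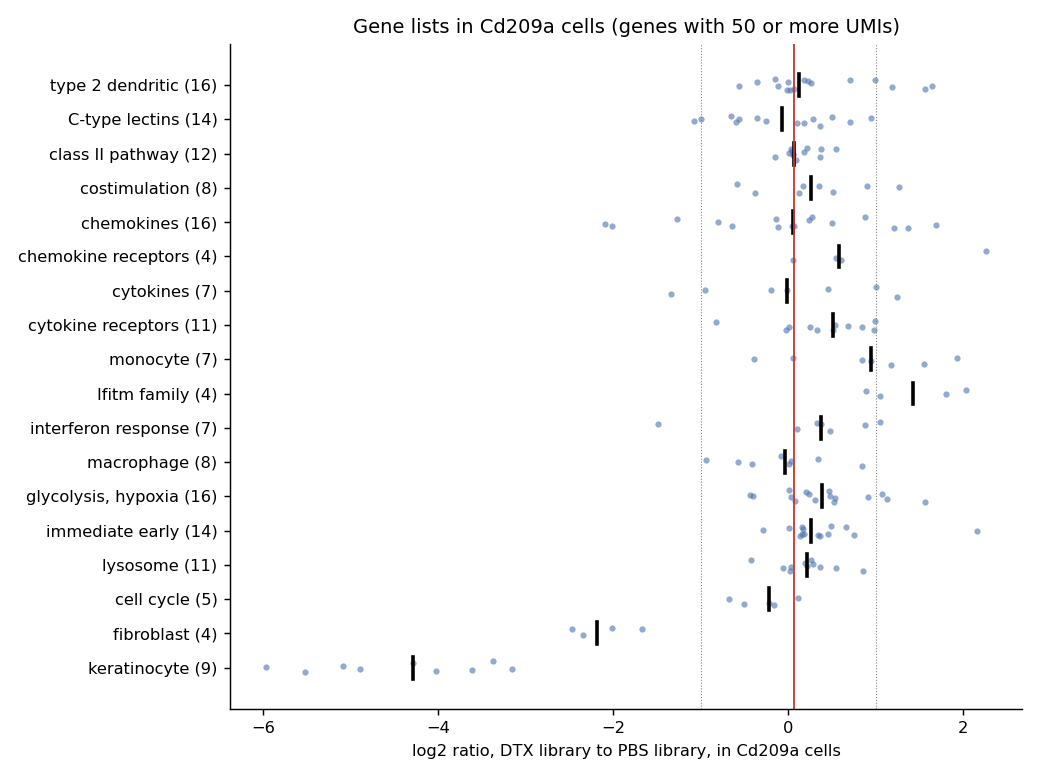
Each point is the log2 ratio of DTX to PBS of 1 gene with at least 50 UMIs in Cd209a cells, in 18 gene lists, with the median of the list in black and the median of all genes as a red line. The 4 Ifitm genes and 6 of the 7 monocyte genes lay above 0, all fibroblast and keratinocyte genes lay below -1, and the class II pathway lay close to the line.

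Of 7 measured monocyte genes, 3 rose and none fell, with a median of 0.95, against 1.01 in class II macrophages. *Vcan* (versican, 1.55), *Chil3* (1.93, from 9 and 56 UMIs) and *Fn1* (fibronectin, 1.18, or 0.71 as the mean over cells) rose, *Ly6c2*, the surface marker of inflammatory monocytes, was at 0.95 and *Plac8* at 0.84, and *F13a1* was at -0.39. Cells with at least 3 UMIs of *Ly6c2* were 3.41% of *Cd209a* cells in PBS and 18.4% in DTX. Of 8 measured macrophage genes none was past 2-fold and the median was -0.04, against -0.67 in class II macrophages. *C1qa* was at -0.41, *C1qb* at 0.00, *C1qc* at -0.57, *Adgre1* (F4/80) at -0.08, *Fcgr1* at 0.84, *Cd68* at 0.34 and *Apoe* at -0.94.

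The Ifitm genes, which encode small interferon-inducible membrane proteins, gave the list with the largest share of rises among the lists examined, 3 of 4, with a median of 1.43 against 1.29 in class II macrophages. *Ifitm1* had 354 UMIs in PBS and 2228 in DTX (2.03, 1.87 to 2.20), against 3.38 in class II macrophages, *Ifitm6* was at 1.80, *Ifitm3* at 1.05 (0.97 without the 6 mixed cells) and *Ifitm2* at 0.89. Of 7 measured interferon-stimulated genes 1 rose and 1 fell, with a median of 0.38, and the gene that rose was *Ifitm3* again. *Rsad2* (viperin) fell (-1.49) and *Isg15* was at 0.87. Of 9 measured genes of alternative activation 2 rose, *Chil3* among them, and none fell (median 0.50). Of 16 glycolysis and hypoxia genes 3 rose (median 0.38), with *Hif1a*, the oxygen-regulated factor itself, at 1.13, the lactate transporter *Slc16a3* at 1.07 (0.90 without the 6 mixed cells) and the collagen hydroxylase *P4ha1* at 1.56, while *Gapdh* was at 0.01.

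Among the 12 largest rises in *Cd209a* cells were *Id1* (2 and 53 UMIs, 3.67), *Ccr1*, *Hip1* (2.18), *Spon1* (2.16), *Klf2* (2.15, of whose 93 DTX UMIs 1 cell held 46), *Ifitm1*, *Il21r* (12 and 77 UMIs, 2.00), *Chil3*, *Ppme1* and *Rrad*. *Id1* is an inhibitor of DNA binding downstream of BMP signals, and *Il21r* is the receptor of interleukin-21. Of these, *Id1*, *Klf2*, *Ccr1*, *Hip1*, *Il21r*, *Ifitm1*, *Spon1* and *Rrad* were also among the 12 largest without the 6 mixed cells, where *Scin* and *Elk3* joined them.

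The largest falls were *Ly6g6c* (111 and 0 UMIs, at least 56.8-fold lower with 3 counts in place of 0), *Gm47283* (102 and 0 UMIs, at least 52.2-fold lower), *Ifi202b*, *Krt77*, *Lypd3*, *Sprr1a*, *Perp*, *Cldn4*, *Serpinb2*, *Krt1*, *Clca3a2* and *Mid1* (120 and 4 UMIs, -5.17). Most of these are genes of keratinocytes, and all 9 measured keratinocyte genes fell (median -4.28), at a summed level of 2056 CPM in PBS and 93.1 in DTX, against 2225 and 515 in other immune cells. In PBS 4 mixed cells held 1352 of the 1567 UMIs of this sum, so it is not the level of the other PBS cells, which was far lower. Without the 6 mixed cells 1 gene of the list had 50 UMIs, *Lgals7*, at -1.98, *Ly6g6c* was at 8.67 CPM in PBS in place of 146, and *Ifi202b* was at -3.49, *Serpinb2* at -2.37, *Sprr1a* at -2.06 and *Krt1* at -1.50. Without the 6 mixed cells the 12 largest falls of all genes were *Gm47283*, *Mid1*, *Plet1*, *Sparc*, *Dcn*, *Cst6*, *Ccl8*, *Col3a1*, *Mmp12*, *Fcrls*, *Cxcl10* and *Tnfaip6*. *Gm47283* and *Mid1* also fell in class II macrophages (-5.39 and -5.92) and in mature dendritic cells (-5.92 and -4.27), and *Gm47283* had a UMI in 50 of the 88 PBS cells.

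Fibroblast RNA was lower in the *Cd209a* cells of the DTX library. All 4 measured genes of that list fell (median -2.18, against -1.91 in class II macrophages), at a summed level of 565 CPM in PBS and 144 in DTX, against 1042 and 257 in class II macrophages and 1071 and 353 in other immune cells. *Sparc*, *Dcn* and *Col3a1* each had UMIs in 57.1%, 51.2% and 61.9% of the 84 PBS cells left without the mixed ones, and in 17.7%, 12.5% and 28.1% of the 96 DTX cells. They were spread over many cells, as was *Lgals7* of the keratinocyte list, with a UMI in 61.4% of all PBS and 26.5% of all DTX *Cd209a* cells, and they moved with the number of fibroblasts in each library, but whether the RNA was free in the suspension was not tested.

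Of the library checks, *Xist* was at 0 in both, and *Ddx3y* had 91 and 185, *Eif2s3y* 40 and 49 and *Uty* 23 and 35 UMIs in *Cd209a* cells. The methods give the mice as male.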

How the data were processed

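Wounds were dissociated and live cells were sorted and captured with a droplet 3′ kit. The authors deposited raw UMI counts per gene and barcode, made per the methods and the submitters' processing notes with Cell Ranger (6.1.1 in the notes) against mm10, with no normalization. No column was left out (0). The methods mention 2 technical replicates, and how these relate to the 2 deposited libraries is not given in the sources used here. The study's upper limit of 2000 genes per cell was used as an alternative only. Scrublet in scanpy 1.11.5 called 382 of 8326 PBS cells and 0 of 7188 DTX cells, and why it called none in DTX was not examined. No doublets were removed, and leaving out the top 8% of scores, which rests on the same scores, was an alternative.

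The members and gene lists were chosen with earlier results of these data known. Counts were summed per library in Python 3.11.15 (numpy 2.4.6, scipy 1.17.1, pandas 2.3.3, matplotlib 3.10.9), with exact Clopper-Pearson, Poisson and conditional binomial intervals. Named genes were those of the label, the subset and lectin lists, the 12 largest and 12 smallest ratios, the 15 leading genes over macrophages and over other kept cells, *Mrc1*, *Hbegf*, 4 genes of sex, and list genes with their list's counts. The C1q split and the alternative without the 6 mixed cells were chosen after seeing the data. The calculations were tested on simulated data. Promoters came from RefSeq (GRCm38.p6). Some genes that these rules name are not reported here.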

Additional observations from a re-analysis of the deposited data

Results flagged for a closer look

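*Ccl3*, a chemokine for monocytes and T cells, was the gene that moved past 2-fold in opposite directions in *Cd209a* cells and in class II macrophages of the same libraries. Its log2 ratio of DTX to PBS was -1.27 (-2.23 to -0.46) in *Cd209a* cells, from 31 and 19 UMIs, and 1.16 (1.02 to 1.33) in class II macrophages, from 417 and 1958 UMIs. In mature dendritic cells the ratio was -0.44. In *Cd209a* cells it was -0.95 with 10 CPM added, and 1 PBS cell held 9 of the 31 UMIs. *Ccl3* had a UMI in 12.5% of PBS and 11.2% of DTX *Cd209a* cells, and the difference between the groups of cells was not tested.

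Some barcodes left out by the mitochondrial limit met the rest of the rule. Of 2992 DTX barcodes over that limit, 31 (1.04%, 0.705% to 1.47%) met the other limits of the rule, and of 2620 PBS barcodes 18 (0.687%, 0.408% to 1.08%) did. The intervals overlapped. They are not counted among the *Cd209a* cells, and the difference between the libraries was not tested.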

How the results depend on the processing

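No paired analysis was possible because each condition had 1 library. Of 4 shares, 29 of 32 values under alternatives moved by less than their interval, while 3 moved, and of 2274 values of 230 genes 222 moved and 0 reversed a difference past 2-fold. Of 26 counts of genes 10 moved, of 251 list medians 18, and of 10 shares of cells with a UMI 9. The study's limit of 2000 genes per cell left 38 PBS and 8 DTX cells. It gave log2 ratios of the share of -2.31 among kept cells, -1.68 among cells meeting the other limits and -2.78 among leukocytes, 37 rises and 38 falls of 646 genes, and medians of -0.47 for type 2 dendritic genes, -0.71 for lectins, -0.089 for class II, -0.23 for chemokines, 0.45 for cytokines, -1.86 for macrophage, -0.21 for inflammatory, -0.21 for immediate early, -0.32 for lysosomal and 0.24 for S100 genes. The limit left 2522 of 8326 kept PBS cells and 2642 of 7188 kept DTX cells, and the *Cd209a* cells had more genes in DTX. Thinned to 2000 UMIs, 51 PBS and 46 DTX cells met the rule, and the share ratios were 0.06, -0.77 and -1.24. With 10 CPM added 57 genes rose and the keratinocyte median was -3.11, and with the mean over cells it was -3.46. With a mitochondrial limit of 10% the cell cycle median was -0.96. Falls numbered 55 without the top doublet scores, 54 without the 6 mixed cells and 52 with at least 5 *Cd209a* UMIs, where the cytokine median was 0.55 and the monocyte median 1.98. With at most 1 C1q UMI the medians of macrophage, interferon and Ifitm genes were 0.28, 1.49 and 1.70. Genes with at least 20 UMIs gave 261 rises and 271 falls, and those with at least 200 gave 20 and 18. With the median ratio set to 0, 80 rose and 110 fell, in place of 103 and 101. Without thinning, detection of *Flt3* was 17.0% and 37.8%.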

Other observations

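A minority of *Cd209a* cells carried RNA of cell cycle genes. Cells with at least 3 UMIs over *Mki67*, *Top2a*, *Birc5* and *Cdk1* together were 10 (11.4%) in PBS and 9 (9.18%) in DTX. Of a list of 12 genes of the cell cycle 5 were measured, and none was past 2-fold (median -0.22). The proliferation antigen *Mki67* was at -0.22, *Top2a* at -0.17, *Stmn1* at -0.51, *Pclaf* at -0.68 and *Birc5* at 0.11.

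Other lists moved little in *Cd209a* cells. Of 16 measured inflammatory genes 1 rose (*Ccl4*) and 1 fell (*Ccl3*), with a median of 0.08, and the inflammasome gene *Nlrp3* was at 0.62, *Icam1* at -0.61 and *Sod2* at -0.58. Of 14 immediate early genes, which respond to dissociation, *Klf2* alone rose (median 0.26), with *Fos* at 0.34, *Junb* at 0.36 and *Hspa1b* at -0.29. None of 11 lysosomal genes (median 0.22), 4 S100 genes (median 0.10) and 4 pattern receptor genes (median 0.34) was past 2-fold. Of 10 migration genes *Mmp12*, a macrophage elastase, fell (-2.12, 183 and 64 UMIs), with *Itgb7* at 0.78, *Cxcr4* at 0.60 and *Cd44* at 0.35 (median 0.23).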
